A study of Macaca mulatta with 20 samples.

Results

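The genes described here encode the inhibin alpha subunit (INHA), the activin antagonists follistatin (FST) and follistatin-like 3 (FSTL3), the ligand bone morphogenetic protein 4 (BMP4) and the transcriptional inhibitor ID4. Every probe set with 1 gene symbol in the platform annotation that named one of these 5 genes was taken, which gave 10 of the 52707 probe sets tested: 1 for INHA, 3 for FST, 1 for FSTL3, 1 for BMP4 and 4 for ID4. No measured value entered the choice of probe sets, but the genes were proposed with earlier results of these data known.

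Activins, inhibins, BMPs and TGF-beta belong to one family of secreted dimers that act through paired serine/threonine kinase receptors and the SMAD proteins. Inhibin is a dimer of the alpha subunit with an activin beta subunit, and it opposes activin in the pituitary, where it restrains FSH secretion, and in the gonads. Follistatin and follistatin-like 3 bind activins and some BMPs outside the cell and keep them from their receptors, while the ID genes are classical targets of BMP signalling. The primate corpus luteum, which develops after ovulation and makes progesterone, is a known source of inhibin.

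Messenger RNA was measured on Affymetrix rhesus arrays in 20 corpora lutea of female rhesus macaques, in 5 groups of 4. The baseline group was untreated and collected on luteal day 10. The other groups received human chorionic gonadotropin (hCG, labelled recombinant, Novarel), the hormone by which an early placenta sustains the corpus luteum, as a model of early pregnancy. It was injected into muscle 2 times per day from luteal day 9, in 9 dose steps from 15 to 2880 IU. Corpora lutea were collected on luteal day 10 (1 day of hCG), day 12 (3 days), day 15 (6 days) and day 18 (9 days). Untreated tissue and hCG day 10 tissue thus have the same luteal day. After that, luteal day, duration and dose of hCG advanced together with no untreated group beside them, so their parts in a difference from baseline cannot be told apart. The same 4 untreated arrays serve in all 4 comparisons with baseline. Nothing in the labels ties a corpus luteum to an animal, so the p-values speak only of the spread among these samples.

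Values are signals in linear intensity units, and tests were made on log2(signal + 16), which understates the fold changes of dim probe sets (FSTL3 on hCG day 18, at a mean of 51.3 units, included). Array medians were 31.6 to 46.4 units. The array medians of hCG days 10, 12, 15 and 18 lay -0.12, -0.14, -0.11 and -0.05 log2 units from the untreated ones, a shift that median-centring removes. Untreated replicate 2, replicate 1 of hCG day 12 and replicate 2 of hCG day 15, 3 arrays in all, stood apart from the rest, with scores of -54.8 to -50.2 on the third principal component against -4.8 to 23.6 in the others, and calls that were lost without them are named below. The corpus luteum list of steroidogenic markers had summed signals of 32677 to 55452 per array, with 6 of its 10 genes measured, and its range overlapped between all groups. Of these 6, 1 gene (HSD3B2, below) fell on hCG days 15 and 18 by limma. On hCG days 10, 12, 15 and 18, 1, 1, 2 and 2 had an unadjusted p under 0.05 against untreated. The share of all probe sets was 10.6% on day 12 and is not given here for the other days. In whole tissue, fewer cells of a type and less RNA per cell cannot be told apart.

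Among the 5 groups, 9 of the 10 probe sets differed (limma moderated F, adjusted p under 0.05), all but that of INHA, against a background of 4.52% of all probe sets tested. The 3 FST probe sets were high on hCG day 10 and lower again by day 18. The FSTL3 probe set was high in both day 10 groups and low on hCG days 15 and 18. The BMP4 probe set and the 4 ID4 probe sets had their highest group mean in untreated tissue.

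**Figure D1:**
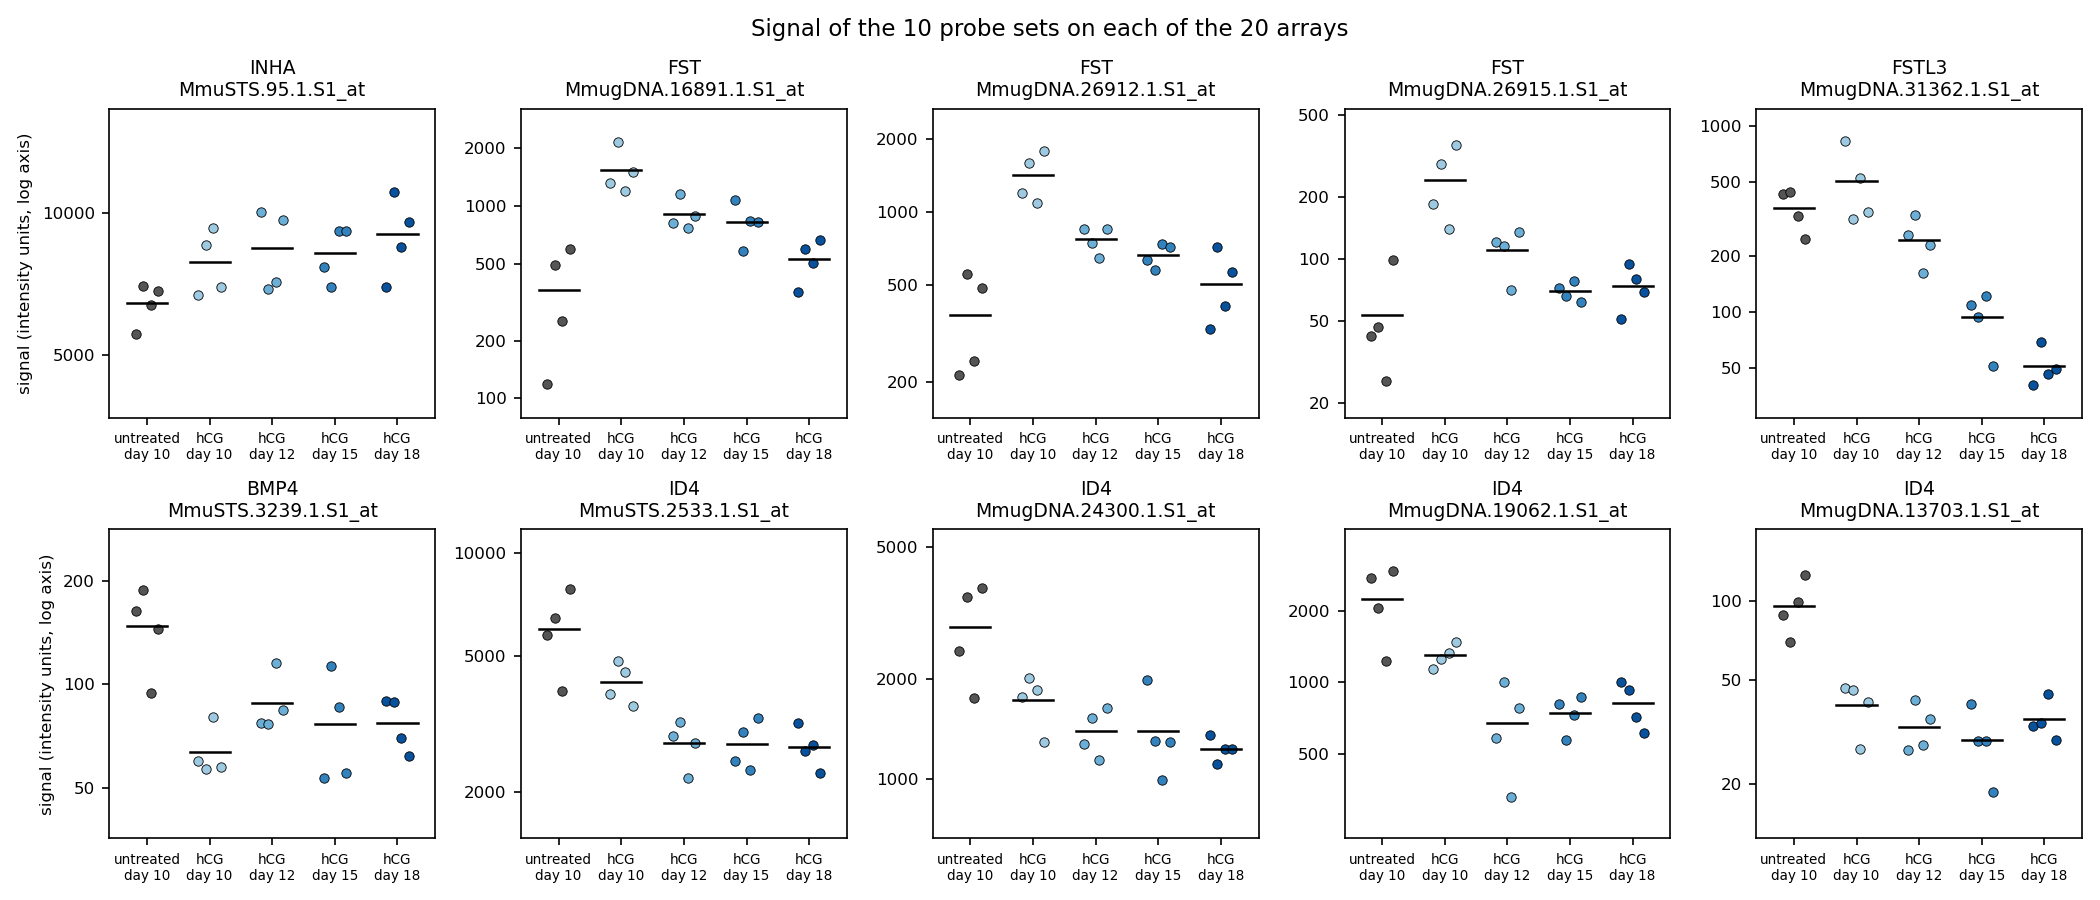
Signal of each of the 10 probe sets (vertical log axis, intensity units) in the 5 groups; each point is 1 array, and the black line is the mean of 4 arrays. FST peaks on hCG day 10, FSTL3 falls to between 40.6 and 68.9 on hCG day 18, and INHA lies between 5523 and 11096 on all 20 arrays.

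INHA, the subunit found only in inhibins, gave a bright signal on all arrays (probe set MmuSTS.95.1.S1_at). The untreated arrays read 5523, 6379, 6832 and 6989 units. On hCG day 10 the signals were 6684, 6980, 8552 and 9286 units, and on day 12 they were 6893, 7135, 9652 and 10025 units. On day 15 they were 6961, 7693, 9139.6 and 9168 units, and on day 18 they were 6968, 8470.3, 9582 and 11096 units. Every group overlapped every other, although all 4 hCG group means, from 7876 ± 1248 (SD) on day 10 to 9029 ± 1745 on day 18, were above the untreated mean of 6431 ± 658 (n = 4 each).

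No comparison of INHA passed the threshold. Its log2 differences from untreated were 0.28, 0.37, 0.35 and 0.47 on hCG days 10, 12, 15 and 18 (SE 0.17 each), with adjusted p = 0.519, 0.438, 0.417 and 0.141. The 95% interval of the day 18 difference, before adjustment, ran from 0.12 to 0.82. The adjusted p of the F test was 0.399.

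BMP4, a ligand that acts through BMP receptors and SMAD proteins and that ovarian cells are known to make, was dim (probe set MmuSTS.3239.1.S1_at). In untreated tissue its signals were 94.5, 145, 163 and 188 units. On hCG day 10 they were 56.9, 57.5, 60.1 and 80.5 units, and on day 18 they were 61.9, 69.7, 88.6 and 89.5 units. All arrays of these 2 hCG groups lay below all untreated arrays. On day 12 the signals were 76.7, 77.2, 84.2 and 115 units, and on day 15 they were 53.5, 55.2, 86.0 and 113 units, so that 1 array of each group reached into the untreated range.

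BMP4 fell by 1.01 on the log2 scale on hCG day 10 (SE 0.21, 2.02-fold, adjusted p = 0.0225) and by 0.79 on day 18 (SE 0.21, 1.72-fold, adjusted p = 0.0402). The values of day 12 (-0.63, adjusted p = 0.277) and day 15 (-0.83, adjusted p = 0.0590) did not pass. The hCG groups did not differ among themselves past the threshold, with log2 differences between -0.20 and 0.38. The 2 calls rest on few arrays and on the scaling: after median-centring the log2 changes were -0.90 and -0.74 (adjusted p = 0.0688 and 0.0912), and without the 3 arrays apart they were -0.89 and -0.67 (adjusted p = 0.0599 and 0.0920). Leaving out any of untreated replicates 1, 2 and 4 or hCG day 10 replicates 2 and 4 ended the day 10 call, and the same 3 untreated arrays, replicate 4 of hCG day 12 or any hCG day 18 array ended the day 18 call, with adjusted p up to 0.0860 and 0.130.

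FST encodes follistatin, which binds activin almost irreversibly. At its brightest probe set (MmugDNA.16891.1.S1_at) the untreated signals were 119, 253, 494 and 597 units, and those of hCG day 10 were 1206, 1326, 1509 and 2153 units. Every hCG day 10 array was above every untreated array. On hCG day 12 the signals were 769, 814, 889.9 and 1154 units, on day 15 they were 584, 833, 843 and 1072 units, and on day 18 they were 358, 504, 601 and 665 units. The day 12 arrays lay above the untreated and below the hCG day 10 arrays, while those of days 15 and 18 reached into the untreated range.

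The other 2 FST probe sets gave the same order on hCG day 10. At MmugDNA.26912.1.S1_at the untreated arrays read 213 to 558 units and those of hCG day 10 1097, 1199, 1595 and 1788 units, followed by 649.6 to 849.7 on day 12, 578 to 737 on day 15 and 331 to 722 on day 18. At the dim MmugDNA.26915.1.S1_at the untreated arrays read 25.6 to 99.0 units and those of hCG day 10 139.9, 186, 289 and 359 units, followed by 71.1 to 135, 62.1 to 78.1 and 51.6 to 94.9 units. In both, hCG day 10 stood clear of every other group. Over the 20 arrays the log2 values of the 3 probe sets correlated with each other at r = 0.815 to 0.938, and at 0.557 to 0.799 after the group means were taken out. They are probe sets of 1 gene on the same arrays, not independent measurements.

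FST rose at all 3 probe sets on hCG day 10. The log2 changes were 2.23 (SE 0.35, adjusted p = 0.0028), 1.96 (SE 0.27, adjusted p = 0.00119) and 1.92 (SE 0.28, adjusted p = 0.00196), in the order given above, which are 4.67-, 3.89- and 3.78-fold. From hCG day 10 to day 18, FST fell at all 3, with log2 differences of -1.51, -1.49 and -1.47 (adjusted p = 0.0140, 0.00245 and 0.00389). These 2 steps together, higher on hCG day 10 and lower on day 18 than on hCG day 10, were met by all 3 FST probe sets and by 230 of all probe sets tested (0.436%). The day 10 calls held at all 3 probe sets without any single array and without the 3 arrays apart (log2 changes 2.44, 2.18 and 1.91). The day 18 call of MmugDNA.16891.1.S1_at was lost without hCG day 10 replicate 2 or hCG day 18 replicate 1 (adjusted p up to 0.0558). For hCG day 10, with the 8 arrays of the 2 groups fitted alone, MmugDNA.26912.1.S1_at passed and the other 2 did not.

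Between those days the decline of FST was less certain. No probe set passed from hCG day 10 to day 12 (log2 differences -0.74, -0.84 and -0.98, adjusted p = 0.591, 0.263 and 0.182), although the arrays did not overlap at any of the 3 (4.59% of all probe sets did not overlap between these groups). From hCG day 10 to day 15, MmugDNA.26915.1.S1_at fell by 1.52 (adjusted p = 0.00594), while MmugDNA.26912.1.S1_at (-1.05, adjusted p = 0.0534) and MmugDNA.16891.1.S1_at (-0.88, adjusted p = 0.286) did not pass. On the mean over the probe sets of each gene, fitted for 14132 genes, FST rose by 2.03 ± 0.27 on hCG day 10 (SE, adjusted p = 0.000366) and differed from that by -1.15 on day 15 and by -1.49 on day 18 (adjusted p = 0.0185 and 0.00123).

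Against untreated tissue, the FST differences of hCG days 12, 15 and 18 did not pass the threshold at any probe set. They were 1.48, 1.12 and 0.94 on day 12 (adjusted p = 0.0838, 0.0948 and 0.224), 1.35, 0.91 and 0.40 on day 15 (0.0678, 0.125 and 0.632), and 0.71, 0.47 and 0.45 on day 18 (0.338, 0.440 and 0.505). All 9 values are above 0, and the 95% interval of the first day 12 value runs from 0.75 to 2.21. Relative to the array median, 2 of the 3 probe sets passed on day 12 (MmugDNA.16891.1.S1_at 1.63, adjusted p = 0.0441; MmugDNA.26912.1.S1_at 1.26, adjusted p = 0.0489) and 1 on day 15 (MmugDNA.16891.1.S1_at 1.46, adjusted p = 0.0398). The order of the group means at the 2 brighter probe sets was hCG day 10, 12, 15, 18 and untreated, and from day 12 on each overlapped its neighbour in that order.

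FSTL3, a relative of follistatin that binds activin and some related ligands and that is also found in the nucleus, went a different way (probe set MmugDNA.31362.1.S1_at). The untreated arrays read 248, 329, 431 and 443 units, and those of hCG day 10 read 317, 345, 525 and 831 units. Those of day 12 read 162, 229, 259 and 333 units. These 3 groups overlapped. The arrays of day 15 read 51.1, 94.0, 109 and 122 units and those of day 18 read 40.6, 46.2, 49.4 and 68.9 units. All 8 arrays of hCG days 15 and 18 lay below all 12 arrays of the other groups.

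FSTL3 was the member with the largest F (rank 52 of all probe sets, adjusted p = 1.65e-05). Against untreated it fell by 1.80 on the log2 scale on hCG day 15 (SE 0.29, 3.48-fold, adjusted p = 0.00287) and by 2.47 on day 18 (SE 0.29, 5.56-fold, adjusted p = 4.68e-05). Its differences on day 10 (0.39, adjusted p = 0.625) and day 12 (-0.54, adjusted p = 0.527) did not pass. Within the hCG series it fell from day 10 to day 15 (log2 difference -2.19, adjusted p = 0.000253), from day 10 to day 18 (-2.87, 7.29-fold, adjusted p = 7.64e-06) and from day 12 to day 18 (-1.94, adjusted p = 0.00207). Each of these 5 calls held under every alternative setting and without any single array.

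No single step between neighbouring collection days passed for FSTL3. From day 10 to 12 the log2 difference was -0.93 (adjusted p = 0.233), from day 12 to 15 it was -1.26 (adjusted p = 0.432, unadjusted p = 0.000336, arrays not overlapping, as in 2.45% of all probe sets) and from day 15 to 18 it was -0.67 (adjusted p = 0.665). In the last 2 steps limma called 0 of all probe sets tested. The day 12 to 15 step therefore gives a size, with a 95% interval of -1.86 to -0.66, and no call.

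The 2 antagonist genes had their highest mean in the same group, hCG day 10, and their lowest in different ones, untreated for FST and hCG day 18 for FSTL3. For FSTL3 the hCG day 10 group did not differ from untreated past the threshold (0.39, limma, adjusted p = 0.625). On hCG day 18 the 3 FST probe sets stood 0.71, 0.47 and 0.45 above untreated on the log2 scale. None of these passed (limma, adjusted p = 0.338, 0.440 and 0.505). FSTL3 stood 2.47 below untreated, a difference that passed, with the same untreated arrays in both genes.

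ID4 belongs to the family of small helix-loop-helix proteins that cannot bind DNA and that hold basic helix-loop-helix factors inactive. At its brightest probe set (MmuSTS.2533.1.S1_at) the untreated arrays read 3946, 5758, 6444 and 7833 units. Those of hCG day 10 read 3559, 3873, 4492 and 4830.4 units and overlapped the lowest untreated array. On day 12 the signals were 2192, 2782, 2919 and 3198 units, on day 15 they were 2316, 2454, 2989 and 3289.8 units, and on day 18 they were 2273, 2629.5, 2750.3 and 3172 units. These 3 later groups were alike in range, and all 12 of their arrays lay below all arrays of both day 10 groups.

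The ID4 probe set MmugDNA.19062.1.S1_at had the same shape, with 1234 to 2961 units untreated, 1143 to 1481 on hCG day 10, 329 to 1002 on day 12, 572 to 864 on day 15 and 611 to 1001 on day 18. MmugDNA.24300.1.S1_at read 1761 to 3776 units untreated and 1298 to 2024, 1139.8 to 1639, 996 to 1989.8 and 1113 to 1363 units in the hCG groups in order, and its day 10 and day 15 arrays overlapped the untreated ones. The dim MmugDNA.13703.1.S1_at dropped further on day 10: its untreated arrays read 70.1, 88.8, 99.5 and 126 units and those of hCG day 10 27.1, 41.0, 45.9 and 46.7 units. Its later groups read 26.9 to 42.0, 18.5 to 40.5 and 29.5 to 44.1 units, so no hCG array reached the untreated range. Over the 20 arrays the 4 probe sets correlated at r = 0.740 to 0.904. With the group means taken out, the first 3 kept r = 0.482 to 0.667 with each other, and MmugDNA.13703.1.S1_at had 0.006 to 0.245 with them.

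ID4 fell at 3 of its 4 probe sets on hCG day 12 and at all 4 on days 15 and 18. At MmuSTS.2533.1.S1_at it fell by 1.08, 1.09 and 1.11 on the log2 scale (SE 0.19, adjusted p = 0.0132, 0.00538 and 0.00159), which are 2.11-, 2.12- and 2.16-fold. At MmugDNA.19062.1.S1_at it fell by 1.75, 1.52 and 1.40 (SE 0.29, adjusted p = 0.00856, 0.0102 and 0.00799). At MmugDNA.24300.1.S1_at the day 12 value did not pass (-0.98, adjusted p = 0.0769), and it fell by 1.01 on day 15 and 1.15 on day 18 (SE 0.23, adjusted p = 0.0294 and 0.00597).

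On hCG day 10 only MmugDNA.13703.1.S1_at passed, with a log2 change of -0.99 (SE 0.18, adjusted p = 0.00776), against -0.48, -0.68 and -0.71 at the other 3 (adjusted p = 0.277, 0.199 and 0.313). This probe set was lower on all 4 hCG days (-1.18, -1.30 and -1.11 on days 12, 15 and 18, adjusted p = 0.00404, 0.000842 and 0.000882), which held for 22 of all probe sets tested (0.0417%). With the gene's probe sets averaged, ID4 fell by 0.72 on day 10 (SE 0.17, adjusted p = 0.0319) and by 1.25, 1.23 and 1.19 on days 12, 15 and 18 (adjusted p = 0.000934, 0.000583 and 0.000171). This mean gives the dim MmugDNA.13703.1.S1_at, the only probe set called on day 10, the same weight as each of the 3 brighter ones.

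All 4 ID4 calls on day 18 held under every setting tried. The day 15 call of MmugDNA.24300.1.S1_at was lost without any of untreated replicates 1, 2 and 4 or hCG day 15 replicates 2, 3 and 4 (adjusted p up to 0.106), and the day 12 call of MmuSTS.2533.1.S1_at without untreated replicate 4 or hCG day 12 replicate 3 (up to 0.0637). That day 15 call was also lost after median-centring (-0.90, adjusted p = 0.0730) and with a pseudocount of 1 (adjusted p = 0.0629). With the 2 groups alone, the only ID4 call kept before day 18 was that of MmugDNA.13703.1.S1_at on day 15. Without the 3 arrays apart, the day 12 calls of MmuSTS.2533.1.S1_at and MmugDNA.19062.1.S1_at and the day 15 calls of MmugDNA.19062.1.S1_at and MmugDNA.24300.1.S1_at were lost, at log2 changes of -1.06, -1.73, -1.42 and -0.88 (adjusted p = 0.0907, 0.0734, 0.0914 and 0.193). Between hCG groups no ID4 probe set passed; from hCG day 10 to day 18 the 4 values were -0.63, -0.47, -0.69 and -0.12, the first with adjusted p = 0.0585, and under median-centring that one was -0.69 with adjusted p = 0.0460.

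**Figure D2:**
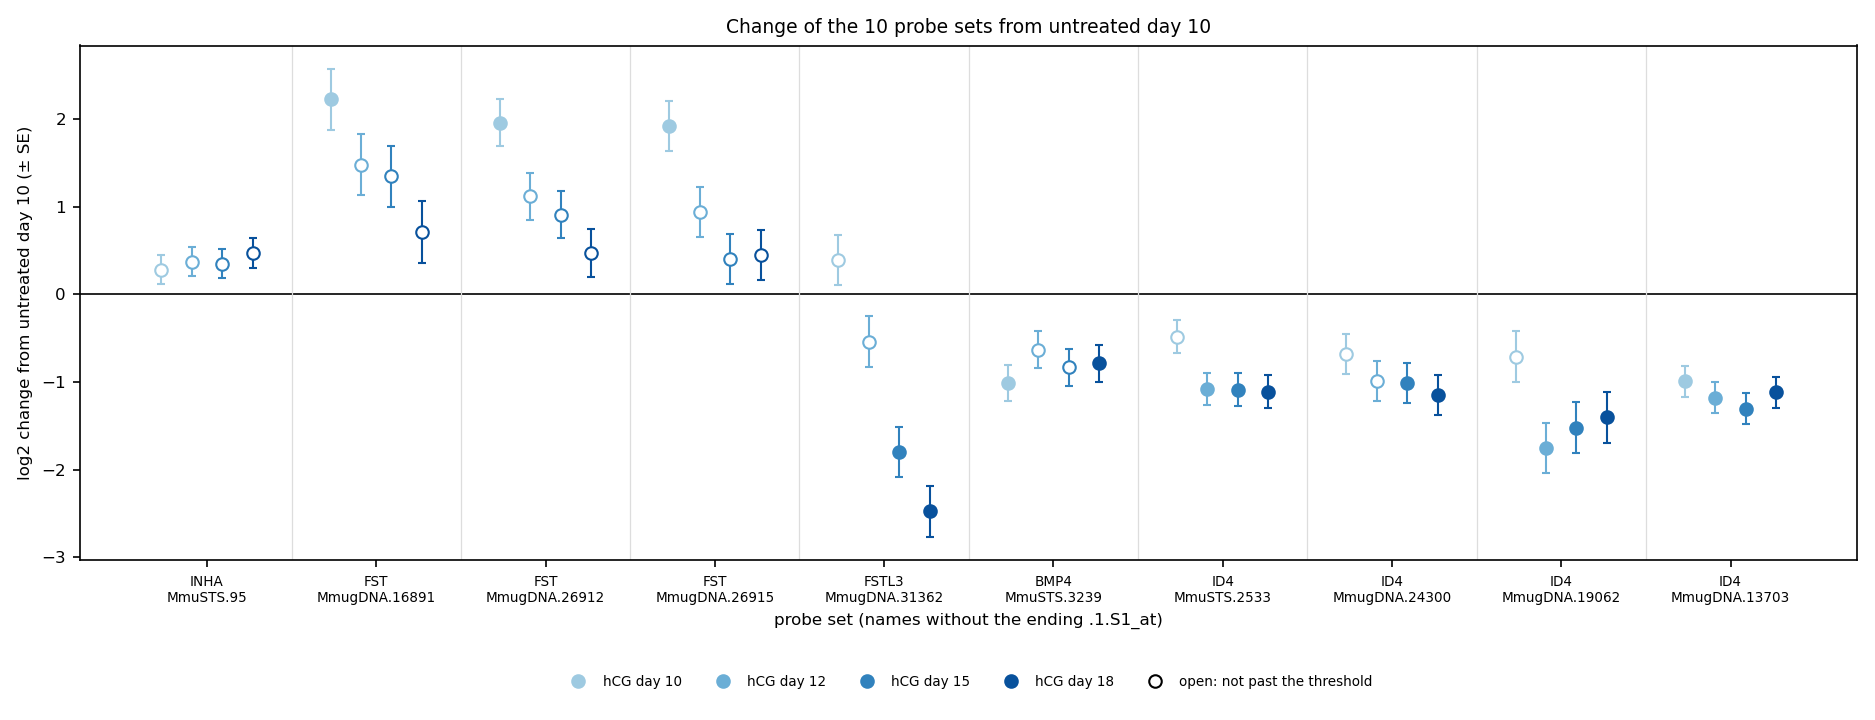
Log2 change of each of the 10 probe sets from untreated day 10 (vertical axis), with standard errors, on hCG days 10, 12, 15 and 18 from light to dark; filled points passed at an adjusted p under 0.05 and open points did not. FST is highest on hCG day 10, FSTL3 drops to -1.80 and -2.47 on days 15 and 18, and the ID4 probe sets lie between -0.48 and -1.75.

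Counted over the 10 probe sets, 3 rose and 2 fell on hCG day 10 (FST against BMP4 and 1 of ID4), where 0.954% of all probe sets tested passed, 0.651% higher and 0.304% lower. On day 12, 3 fell (0.288% of all passed, 0.157% higher and 0.131% lower). On day 15, 5 fell (1.29% passed, 0.619% higher and 0.674% lower), and on day 18, 6 fell (3.90% passed, 1.87% higher and 2.02% lower): FSTL3 and ID4 on both days, and BMP4 on day 18. None rose on the last 3 days. The arrays did not overlap with the untreated ones for 5, 6, 5 and 6 of the 10 on these days, against 7.96%, 5.70%, 7.20% and 11.2% of all probe sets.

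The median log2 difference of the 10 from untreated was -0.10, -0.58, -0.92 and -0.95, against -0.05, -0.06, -0.05 and -0.03 over all probe sets tested. Because 4 of the 10 belong to ID4 and 3 to FST, this median mostly follows those 2 genes. Within the hCG series, 2 of the 10 fell from day 10 to 15 (1.90% passed, 1.27% lower), 4 from day 10 to 18 (5.21%, 2.95% lower) and 1 from day 12 to 18 (1.43%, 0.782% lower), all of them FST or FSTL3. From day 10 to 12, 0 of the 10 passed (0.518% of all; 6 of the 10, against 8.28% of all, at an unadjusted p under 0.05), and from day 12 to 15 and day 15 to 18, 0 passed (0.00% of all in both; 1 of the 10 in each step at an unadjusted p under 0.05, against 5.13% and 7.00% of all).

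The other genes of the pathway were taken from 7 lists with 91 genes, chosen with earlier results known, of which 68 were measured (the brightest probe set of each). By the F test 6 of the 68 differed among the 5 groups, against 4.52% of all probe sets, which include dim and unnamed ones. Against untreated, 0 rose and 1 fell on hCG day 10, 0 passed on day 12 (by limma; 13 of the 68 had an unadjusted p under 0.05, against 10.6% of all probe sets), 1 rose on day 15, and 3 rose and 2 fell on day 18, where 3.90% of all probe sets passed. From hCG day 10 to day 18, where 2.25% of all probe sets were higher and 2.95% lower, 4 rose and 0 fell. This count leaves out the dimmer HEY2 probe set, which fell between these days. It also leaves out the TGFBR3 probe set MmugDNA.7149.1.S1_x_at, which rose by 0.82, a call lost in 13 of 20 fits without 1 array. Their median differences from untreated were -0.11, -0.02, -0.08 and 0.00, against -0.05, -0.06, -0.05 and -0.03 over all probe sets.

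Of the 3 activin and inhibin subunit genes measured apart from INHA, 0 passed in any comparison by limma, with 1 of the 3 at an unadjusted p under 0.05 on hCG day 10 against untreated and on hCG days 12, 15 and 18 against hCG day 10. For hCG day 12 against hCG day 10 the share of all probe sets was 8.28%, and for the other comparisons it is not given here. INHBA encodes the beta A subunit that INHA pairs with in inhibin A and that forms activin A with itself. At MmugDNA.21962.1.S1_at its untreated arrays ranged widely, at 1826, 3231, 4197 and 6187 units. On hCG day 10 they read 1032, 1694, 1813 and 1962 units, and on day 12 they read 2745, 5274, 5487 and 7719 units. All day 10 arrays were below all arrays of the later hCG groups (2943 to 6747 units on day 15, 2214 to 5020.4 on day 18), and 3 of the 4 lay below all untreated arrays.

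The INHBA difference from hCG day 10 was 1.65 on day 12 (SE 0.38, adjusted p = 0.0609) and 1.49 on day 15 (SE 0.38, adjusted p = 0.0510), neither past the threshold. The F test of INHBA did not pass either (adjusted p = 0.0676, and 0.198 at MmuSTS.701.1.S1_at). Neither difference passed after median-centring or quantile normalisation, with a pseudocount of 1 or 64, or with the 2 groups alone. Both passed with the upper 50% of probe sets (adjusted p = 0.0357 and 0.0272), with the replicate block (0.0454 and 0.0357) and without the 3 arrays apart (0.0434 and 0.0449), and the day 15 value also with a robust variance trend (0.0434). Leaving out untreated replicate 1 or hCG day 12 replicate 1 took both past it as well, and leaving out untreated replicate 3 or hCG day 18 replicate 4 the day 15 value alone (adjusted p = 0.0333 to 0.0492). No other fit without 1 array took either past it. The INHBA difference of hCG day 10 from untreated was -1.15 (adjusted p = 0.196). Its second probe set (MmuSTS.701.1.S1_at) gave -1.09, 1.69 and 1.49 for the same 3 comparisons with larger errors (SE 0.49). The group with the highest FST signals, hCG day 10, was thus the one with the lowest INHBA signals, and the arrays of that group are the same in both. INHBB, the beta B subunit gene, was dim, with group means of 31.4 to 64.1 units at its brighter probe set.

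Among 15 BMP and GDF ligand genes other than BMP4, 1 passed: GDF6 rose on day 18 by 0.95 at the brighter of its 2 probe sets (SE 0.25, adjusted p = 0.0368, arrays overlapping), where it had group means of 40.2 units untreated and 94.6 on day 18, while its other probe set, at 9.50 to 15.8 units, gave -0.16 (adjusted p = 0.672). The GDF6 call was lost without any of 5 single arrays (untreated replicates 1, 2 and 4 and hCG day 18 replicates 3 and 4) and without the 3 arrays apart. TGFB1 and TGFB3 did not pass in any comparison, with smallest adjusted p = 0.387 and 0.503.

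Among 15 receptor and coreceptor genes, TGFBR3 changed on day 18. It encodes betaglycan, the coreceptor that binds TGF-beta and that gives inhibin its high affinity for activin receptors. At MmugDNA.7149.1.S1_at the untreated arrays read 1773, 2165, 2243 and 2780.1 units and those of day 18 read 4574, 4805, 5146 and 5495 units, with no overlap. TGFBR3 rose by 1.17 on the log2 scale on day 18 (SE 0.25, 2.25-fold, adjusted p = 0.00996), by 1.06 at the overlapping MmugDNA.7149.1.S1_x_at (SE 0.23, adjusted p = 0.0130), and the third probe set gave 0.79 (SE 0.26, adjusted p = 0.109). The 2 calls held without any single array. On days 10, 12 and 15 the first probe set had group means of 2877, 4192 and 4407 units, against 2240.2 untreated and 5005 on day 18. TGFBR1, a type I receptor for TGF-beta, was higher on hCG day 18 than on hCG day 10 at 1 of its 3 probe sets (0.75, SE 0.18, adjusted p = 0.0163), a call lost without replicate 2 or 3 of hCG day 10 or replicate 1 or 4 of hCG day 18 (adjusted p up to 0.0630).

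Of 8 SMAD genes measured, SMAD7, an inhibitory SMAD, fell on day 18 by 0.73 (SE 0.18, adjusted p = 0.0240), from a mean of 214 to 125 units, a call lost after median-centring, without the 3 arrays apart and without any of 5 single arrays (untreated replicates 1, 3 and 4, hCG day 18 replicates 1 and 3). The SMAD7 means were 137 units on hCG day 10 and 211 on day 12. On hCG day 10 the median log2 difference of the 8 genes from untreated was -0.37, against -0.05 over all probe sets, and 0 of them passed. From hCG day 10 to day 18, SMAD3, which carries activin and TGF-beta signals, rose by 0.85 at 1 of its 4 probe sets (SE 0.17, adjusted p = 0.00404), and SMAD6, the inhibitory SMAD of the BMP branch, rose by 0.67 at 1 of its 2 (SE 0.15, adjusted p = 0.0136), the latter lost without replicate 2 of hCG day 10 or replicate 4 of hCG day 18 (adjusted p up to 0.0543). Both rises started from the lowest group mean. At these probe sets SMAD3 had means of 884 units untreated, 603 on hCG day 10 and 1077 on day 18. SMAD6 had 160, 114 and 189 units, and neither gene passed against untreated.

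Among 16 extracellular and membrane antagonist genes other than FST and FSTL3, BAMBI moved. It encodes a membrane pseudoreceptor without a kinase that blocks BMP, activin and TGF-beta signals. Its untreated arrays read 128, 129, 141 and 167 units, those of hCG day 10 144, 180, 239 and 298 units, and those of day 12 154, 225, 269 and 274 units. The arrays of day 15 read 289.8, 422, 454 and 509.9 units and those of day 18 read 271, 477, 543 and 620.5 units, above all untreated arrays. BAMBI rose by 1.44 on day 15 and by 1.59 on day 18 (SE 0.25, adjusted p = 0.00563 and 0.000853), the days on which FSTL3 was low. Both calls held without any single array, and that of day 15 was lost without the 3 arrays apart. From hCG day 10 to day 18 it rose by 1.08 (adjusted p = 0.0142), a call lost without replicate 2 of hCG day 10 or replicate 4 of hCG day 18 (adjusted p up to 0.0559).

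Of 9 further ID and SMAD target genes, HEY2, a helix-loop-helix repressor, moved. At MmugDNA.15153.1.S1_at the untreated arrays read 538, 543, 625 and 641 units and those of hCG day 10 read 257, 363, 366 and 419 units. The day 12 arrays overlapped the untreated range at 495, 498, 569 and 712 units, and on day 18 they read 236, 276, 315 and 335 units. HEY2 fell by 0.98 on day 18 (SE 0.17, adjusted p = 0.00205), and by 1.07 at its second probe set (SE 0.15, adjusted p = 0.000348). The fall of 0.73 on day 10 (SE 0.17, adjusted p = 0.0459) was lost without any of 16 of the 20 arrays, after median-centring (adjusted p = 0.179) and without the 3 arrays apart (-0.70, adjusted p = 0.136), and the second probe set gave -0.44 (adjusted p = 0.213). That second probe set also fell from hCG day 10 to day 18, from a mean of 169 to 103 units. The call was lost without hCG day 10 replicate 3 or hCG day 18 replicate 1 (adjusted p up to 0.0722). From day 12 to day 18 HEY2 fell by 0.93 (adjusted p = 0.00938), whereas the ID4 probe sets had differences of -0.16 to 0.35 between these days, none past the threshold.

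**Figure D3:**
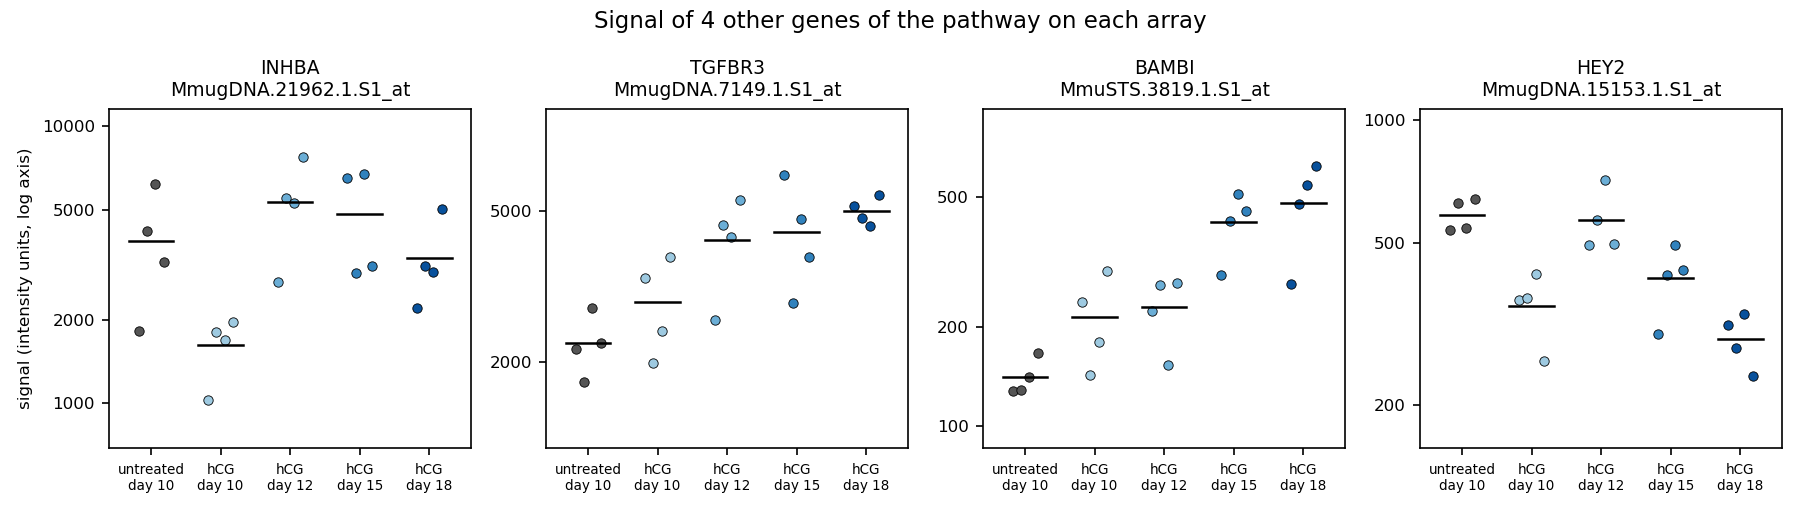
Signal of INHBA, TGFBR3, BAMBI and HEY2 (vertical log axes, intensity units) in the 5 groups; each point is 1 array, and the black line is the mean of 4 arrays. INHBA is lowest on hCG day 10, TGFBR3 and BAMBI are highest on day 18 (means 5005 and 478 units), and HEY2 is lowest on day 18 (mean 290.3 units).

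The markers of other cell types were compared beside these results, as summed signals of the brightest probe set per gene. Their part in the results was not tested. Of all probe sets, 10.6% had an unadjusted p under 0.05 (limma) on hCG day 12 against untreated. For hCG days 10, 15 and 18 this share is not given here, so the unadjusted counts of those days have no background beside them. The 9 endothelial genes measured had sums of 6961 to 10982 units on the 20 arrays, with every group overlapping every other, and 1 gene, SOX17, fell on hCG day 10. Against untreated, 3, 0, 2 and 0 of these 9 had an unadjusted p under 0.05 on hCG days 10, 12, 15 and 18. The 5 fibroblast genes summed to 8702 to 26082 units and the 4 smooth muscle and pericyte genes to 2693 to 5647 units, with 0 genes of either list passing by limma against untreated. At an unadjusted p under 0.05 the counts of these lists were highest on hCG day 12. That was the first day on which most ID4 probe sets passed the threshold, although all 4 had lower means than untreated already on hCG day 10. On day 12 the counts were 3 of the 4 smooth muscle and pericyte genes and 2 of the 5 fibroblast genes. The smooth muscle sums were then 3410 to 5647 units against 2693 to 3644 untreated, while on day 18 they were 2819 to 3867 units with 0 such genes in either list. The 7 macrophage genes summed to 3093 to 8620 units untreated and to 7908 to 14363 units on day 18. Those ranges overlapped, but all day 18 sums were above every array of the other hCG groups (highest 7533 units). On day 18, 5 of the 7 genes had an unadjusted p under 0.05, and 1 of them, CSF1R, rose by 1.06 (adjusted p = 0.0121). A dimmer probe set of C1QA, outside the sum, fell by 1.16 (adjusted p = 0.0294). That is the day of the lowest FSTL3 and the highest TGFBR3 signals. The 4 T and NK cell genes summed to 4221 to 14126 units over all groups, with 0 called by limma against untreated (2 on day 18 at an unadjusted p under 0.05). The 4 genes measured of the follicle list, CYP17A1 among them, summed to 321 to 468 units untreated. On every hCG day all arrays were above that range, at 493 to 1175 units on day 10, the day of the highest FST signals, 656 to 1583 on day 12, 933 to 1623 on day 15 and 1059 to 2535 on day 18. Most of these sums was the signal of CYP17A1, with group means of 323 units untreated and 819.9, 979, 1258 and 1599 units on the 4 hCG days. The sums thus mainly follow 1 gene and do not measure follicle tissue, whose amount was not tested. At an unadjusted p under 0.05 the counts were 1, 2, 2 and 1 of the 4. By limma 0 passed on days 10 and 12, and on day 18 CYP17A1 rose by 2.20 (adjusted p = 0.000670); it also rose on day 15.

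Within the steroidogenic list, HSD3B2, an enzyme of progesterone synthesis, moved with FSTL3. It fell by 0.97 on day 15 (adjusted p = 0.0243) and by 1.83 on day 18 (adjusted p = 4.44e-05), from a mean of 8320.3 units untreated and 10324 on hCG day 10 to 4347 and 2339.9 units.

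Across the 20 arrays, HSD3B2 was also the gene whose log2 values followed FSTL3 most closely (r = 0.936) among 9727 genes in the upper 50% by mean signal, followed by TNFRSF12A, CCNB1 and TRIP13 (0.925, 0.924 and 0.921). These coefficients describe arrays that share their groups: with the group means taken out they were 0.534, 0.461, 0.581 and 0.557. For INHA the closest were QSOX1, SDF4, MTCH1 and ALDOA (0.844, 0.835, 0.830 and 0.825), and here the values within groups were nearly as high (0.820, 0.744, 0.754 and 0.734).

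For FST the 4 closest genes were LOC695135, TNS4, TXNDC17 and TMEM181 (0.809, 0.791, 0.782 and 0.764; within groups 0.535, 0.411, 0.339 and 0.590). Of these TNS4 had the most similar sizes of change, with 1.92, 1.38, 1.38 and 0.84 on the 4 hCG days against 2.23, 1.48, 1.35 and 0.71 for FST at MmugDNA.16891.1.S1_at. For BMP4 they were UBP1, NSMCE4A, PCGF6 and MIER3 (0.877, 0.821, 0.790 and 0.784; within groups 0.683, 0.723, 0.583 and 0.490). For ID4 they were MRO, DUSP10, SYAP1 and CH25H (0.876, 0.859, 0.854 and 0.851; within groups 0.517, 0.634, 0.300 and 0.583), with MRO at log2 differences from untreated of -1.10, -2.13, -2.33 and -2.87 on the 4 days. All of these are descriptions with no test.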

How the data were processed

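Per the submitters' processing notes, the authors used the Affymetrix GCOS software; its version is not given in the sources used here. The deposited table gives the intensity of each probe set on each array on a linear scale. Leaving out 2% at each end, the mean was 200.01 to 200.02 on all arrays, so the deposited values were already scaled to a common target. Array controls (158 of 52865 probe sets) were removed. Of the rest, 24956 carry 1 symbol in the platform annotation, and the identifiers of all 10 member probe sets lead to the same symbols in RefSeq. Log2(signal + 16) was fitted with limma 3.58.1 (R 4.3.3), with a mean per group over all 20 arrays, eBayes moderation and 10 pairwise contrasts. Adjusted p-values are Benjamini-Hochberg over 52707 probe sets, with a threshold of 0.05. Errors are SD for signals and SE for log2 changes. The number of arrays limits the precision.

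The genes, lists and alternatives were chosen with earlier results of these data known. Named beyond the 5 genes are up to 4 genes per pathway list past the threshold (otherwise up to 2) and the 4 genes most like each member over the arrays. Marker genes that passed were named after their values were seen. On simulated data for hCG day 10 against untreated (52707 probe sets), 55 of 100 changes of 2-fold and 94 of 100 of 4-fold were recovered, with 10 unchanged probe sets called. Plots were made in Python 3.11.15 with matplotlib 3.10.9.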

Additional observations from a re-analysis of the deposited data

Results flagged for a closer look

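In 6 of 180 groups of 4 arrays checked, 1 array lay farther from the others than Dixon's 95% critical value allows; chance flags about 5% of groups. BMP4 on hCG day 10 had its highest signal, 80.45, on replicate 3, against 56.91 to 60.07 on the other arrays. INHBA (MmuSTS.701.1.S1_at) on hCG day 18 had 892.3 on replicate 4, against 370.2 to 409.6. TGFBR3 (MmugDNA.7149.1.S1_x_at) in untreated tissue had 2725.3 on replicate 3, against 1747.3 to 1791.5. SMAD3 (MmugDNA.31647.1.S1_at) on hCG day 15 had its lowest signal, 943.1, on replicate 3, against 1010.1 to 1022.2. The dim SMAD6 probe set MmugDNA.41393.1.S1_at on hCG day 18 had 10.07 on replicate 3, against 2.602 to 3.778. The dimmer of the 2 TGFB1 probe sets on hCG day 18 had 24.81 on replicate 1, against 3.642 to 7.125.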

How the results depend on the processing

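The 26 calls of the 10 probe sets were refitted 780 times under the alternatives: 0 changed direction, 732 kept their side of the threshold and 48 did not. Of the 26, 14 were never lost and 5 were lost without 1 array. The alternatives were median-centring, quantile normalisation, pseudocounts of 1 and 64, the upper 50% of probe sets, the arrays of 2 groups alone, a variance trend, the replicate block, averaged probe sets of a gene and each array left out in turn. The fit without the 3 arrays that stood apart was added after seeing the data. The number of the 10 past the threshold on hCG day 12 against untreated, 3, became 5 after median-centring and 5 with the upper 50% of probe sets, 0 with the 2 groups alone and 1 without the 3 arrays apart. With the 2 groups alone it became 1 in place of 5 on hCG day 10 and 2 in place of 5 on day 15, where it was 3 without the 3 arrays. Fits of 2 groups have 8 arrays and fewer degrees of freedom. Without 1 array these counts were 4 to 5 on day 10, 2 to 4 on day 12, 4 to 6 on day 15 and 5 to 6 on day 18. With the replicate number as a block they were 5, 4, 5 and 6, and 3 from hCG day 10 to day 15. The labels do not say whether the numbers pair the samples. In 40 same-numbered pairs the deviations from group means correlated at -0.281 to 0.363, over 0.1 in 14. Pairs with different numbers were not set beside them, so these values cannot decide whether the samples are paired.

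Over all probe sets, the 503 calls of hCG day 10 became 172 with the 2 groups alone, and ran from 228 to 577 without 1 array. The 152 of day 12 became 7 with the 2 groups alone (73 to 290 without 1 array), the 681 of day 15 became 230 (321 to 774), and the 2054 of day 18 became 1693 (1375 to 2120). Between hCG groups, with the 2 groups alone, 273 became 56 from day 10 to 12 (151 to 286 without 1 array), 999 became 394 from day 10 to 15 (592 to 1017) and 753 became 206 from day 12 to 18 (335 to 792); the 2744 from day 10 to 18 became 1980 (1834 to 2844 without 1 array). The dim probe sets of BMP4, FST and ID4, and FSTL3 on hCG days 15 and 18, lie close to the added 16 units, where changes are understated. Detection calls were not used here.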
